A study of Mus musculus with 6 samples.

Results

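The Reg genes encode small secreted proteins that each carry a C-type lectin fold. The names looked for on the arrays were Reg1, Reg2, Reg3a, Reg3b, Reg3d and Reg3g. In all, 10 of the 12488 probe sets carried one of them as their only gene symbol, 2 for each of 5 genes. Reg3d matched no probe set and was not analysed here. The 5 genes stand among 5804 named genes tested. All 10 probe sets passed the filter on dim signal, as did 7739 in all, and each was kept separate.

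Reg1 and Reg2 code for proteins that acinar cells, the enzyme-producing cells of the exocrine pancreas, release with their digestive enzymes, and they are also known as pancreatic stone or thread proteins. The Reg3 genes code for the pancreatitis-associated proteins, which are well known as transcripts induced in acinar cells during pancreatitis. Reg3b and Reg3g proteins are also made by the epithelium of the small intestine, where they act against bacteria, and signalling by cytokines of the interleukin-6 and interleukin-22 type through the transcription factor STAT3 is a known inducer of Reg3 transcription.

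The arrays came from 6 male mice, 1 mouse per array, and held pancreatic total RNA. The 3 control mice were CFTR+/+ and aged 57, 56 and 57 days (replicates 1, 2 and 3), and the 3 mice called CF here were CFTR-/- and aged 57, 56 and 58 days. Cftr encodes the chloride and bicarbonate channel of epithelia that is lost in cystic fibrosis. Both groups were gastrin+/-, so a reduced dose of the gastrin gene was common to all 6 animals, and both had a background that was 95% black6 and 5% 129Sv. From the age of 10 days all mice received Peptamen, a liquid peptide diet, against obstruction of the intestine. The labels do not say how Cftr was disrupted. The label of control replicate 1 alone speaks of the entire pancreas.

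Array medians lay between 207.8 and 234.4 and maxima between 92020 and 135426, in the deposited intensity units. On the tested Cftr probe set, controls averaged 293 ± 62 and CF mice 382 ± 78 (SD, n = 3; log2 difference 0.38, limma adjusted p = 0.82). Its position against the disruption is not known here, so it checks no label. Of the 5 defining acinar genes, the elastase Cela1 averaged 94371 in controls and 78955 in CF, the chymotrypsinogen Ctrb1 111633 and 93684, and colipase, Clps, 86817 and 78294. The other two, Cpa1 and Pnlip, had no probe set of their own. The ratio of the 3' to the 5' Gapdh probe set, a sign of RNA quality, ran from 0.723 to 0.873 in CF. The ratio in controls was 1.45 for replicate 2, against 0.798 for replicate 1 and 0.838 for replicate 3. For the beta-actin gene Actb it was 1.74, 2.16 and 1.93 in control replicates 1, 2 and 3. In CF replicates 1, 2 and 3 the Actb ratio was 1.75, 2.14 and 1.94.

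The 6 Reg genes follow each other on mouse chromosome 6 in the RefSeq annotation of GRCm38.p6, in the order Reg3b, Reg3d, Reg3a, Reg2, Reg1 and Reg3g, with no other protein-coding gene between them. The 250 bases before the start of 4 of them are shown because 3 of these genes, Reg3g, Reg3a and Reg3b, had CF values above all control values on both of their probe sets, while Reg1 did not on either. They are RefSeq sequences of GRCm38.p6, read 5' to 3' towards the gene. Reg3g lies on the minus strand (chr6:78468875-78469124), and Reg3a (chr6:78380459-78380708), Reg3b (chr6:78370635-78370884) and Reg1 (chr6:78425733-78425982) lie on the plus strand. Capitals mark matches on either strand to TTCNNNGAA, the palindrome bound by STAT factors, to CTGGGA, a short element of genes that respond to interleukin-6, and to TATAAA, the TATA box.
Reg3g: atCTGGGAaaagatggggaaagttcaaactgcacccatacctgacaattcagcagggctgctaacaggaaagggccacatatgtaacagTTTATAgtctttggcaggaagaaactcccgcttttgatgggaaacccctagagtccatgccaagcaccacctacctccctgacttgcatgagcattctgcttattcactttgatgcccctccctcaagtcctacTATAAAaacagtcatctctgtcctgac
Reg3a: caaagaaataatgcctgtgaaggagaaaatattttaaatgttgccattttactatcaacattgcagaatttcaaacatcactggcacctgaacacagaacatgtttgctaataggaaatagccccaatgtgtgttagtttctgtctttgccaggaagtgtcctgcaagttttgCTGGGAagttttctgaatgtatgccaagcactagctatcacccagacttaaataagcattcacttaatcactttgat
Reg3b: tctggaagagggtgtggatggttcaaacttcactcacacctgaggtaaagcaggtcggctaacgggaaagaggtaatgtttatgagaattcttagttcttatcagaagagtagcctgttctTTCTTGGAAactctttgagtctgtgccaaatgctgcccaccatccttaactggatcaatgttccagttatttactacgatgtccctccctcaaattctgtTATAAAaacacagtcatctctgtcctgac
Reg1: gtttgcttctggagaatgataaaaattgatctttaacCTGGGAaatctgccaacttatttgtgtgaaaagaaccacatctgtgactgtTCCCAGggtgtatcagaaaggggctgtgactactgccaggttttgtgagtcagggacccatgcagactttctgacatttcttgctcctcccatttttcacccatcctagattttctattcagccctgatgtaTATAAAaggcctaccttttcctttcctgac

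TTCNNNGAA matched once before Reg3b, 129 to 121 bases ahead of the start, and once before the unmeasured Reg3d, and it was in 2 of 6 Reg promoters against 7.02% of 32851 promoters of the same length. No match lay in the windows of Reg3a, Reg3g, Reg1 or Reg2. CTGGGA was in 4 of 6 Reg promoters against 27% of all, once each before Reg3g, Reg3a and Reg3d and at 2 places before Reg1; the match before Reg3d overlapped its TTCNNNGAA match. TATAAA was in 4 of 6 against 12.4%: its forward match lay 27 to 22 bases before the start of Reg3g, 29 to 24 before that of Reg3b, and 30 to 25 before those of Reg1 and Reg2. The Reg3g window held a further match on its reverse strand.

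Of the other 3 motifs searched, TGANTCA, bound by AP-1, was in 1 of 6 Reg promoters, that of Reg1, against 6.75% of all. TTGCNNAA, bound by C/EBP factors, was in those of Reg2 and Reg3a, 2 of 6 against 9.56%, and CANCTG, an E-box, was in 5 of 6, all but Reg3g, against 44.8%. The last 20 bases before the start were the same in Reg3b and Reg3g, the longest run shared by any pair of the 6 windows. In global alignments Reg3a and Reg3g had the same base at 71.9% of aligned positions, Reg3b and Reg3g at 70%, and Reg3a and Reg3b at 69.9%. The remaining pairs ran from 53.9% to 68.7%. A match describes these letters only.

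Across the family, transcripts of Reg3g and Reg3a rose in the CF pancreas, and those of Reg3b, Reg2 and Reg1 did not pass the threshold. Of the 10 Reg probe sets, 4 were called higher in CF at an adjusted p under 0.05 (limma over all 7739 tested probe sets, Benjamini-Hochberg), both of Reg3g and both of Reg3a, and 0 were called lower. Of all tested probe sets, 5, or 0.0646%, were called higher and 0 lower; at an unadjusted p under 0.05, 7 Reg probe sets were higher and 0 lower, against 330 and 241 of all. All 3 CF values lay above all 3 control values for 7 of 10 Reg probe sets, against 7.37% of all tested. The median log2 difference of the Reg probe sets was 1.33, and that of all tested was 0.00.

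**Figure D1:**
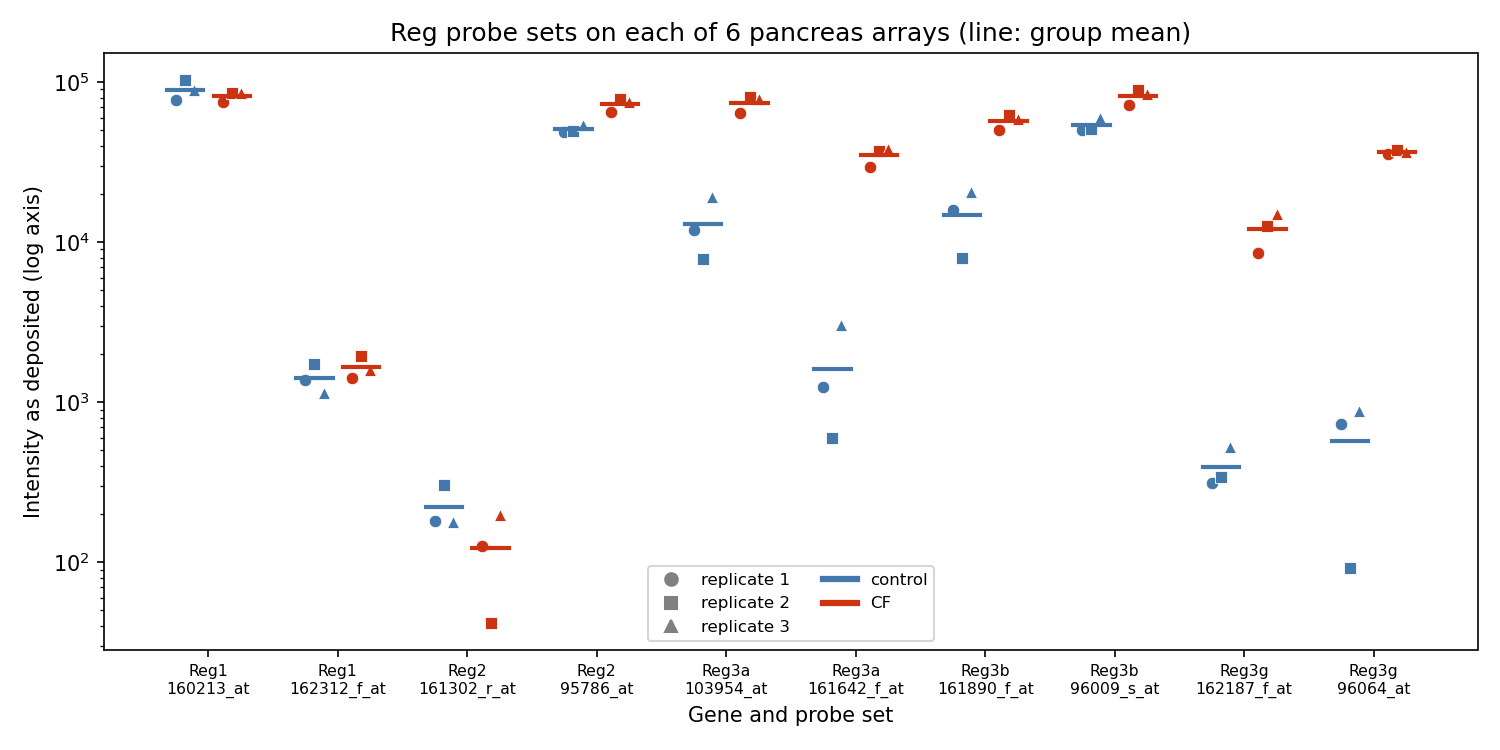
Deposited intensity (log axis) of the 10 Reg probe sets on each array; colours are the groups, marker shapes the replicate numbers, and short lines the group means. For both probe sets of Reg3g, Reg3a and Reg3b and the brighter one of Reg2, every CF point lies above every control point; Reg1 points of the groups overlap.

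Reg3g, the antibacterial lectin known from the gut, was the family member with the largest rise. On probe set 96064_at the control values were 736, 92.4 and 883, in the order of replicates 1, 2 and 3, and the CF values 35523, 37400 and 36713. The CF values lay within a narrow band, with an SD of 2.6% of their mean, while the controls had an SD of 73.7% of theirs, set by the low second replicate. The log2 difference was 6.54 ± 0.72 (SE; 95% interval 4.91 to 8.18; adjusted p = 0.021), a 93.3-fold rise. The size of this fold rests on control replicate 2, which lay under the filter level of 140.2; the ratio of the group means of intensity was 64.1. The log2 difference was the largest difference of all 7739 tested probe sets. Leaving out control replicate 2 lowered it to 5.50 (adjusted p = 4.3e-06), and leaving out control replicate 3 raised it to 7.13. The call did not hold without CF replicate 1, 2 or 3 (adjusted p = 0.14, 0.15 and 0.062), although the difference then stayed between 6.53 and 6.56.

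The second Reg3g probe set, 162187_f_at, gave the smallest p of all tested probe sets. It measured 312, 343 and 527 in controls and 8613, 12638 and 14986 in CF. Neither group had an array far from its others on the log scale, and the groups were far apart. This was a 30.7-fold rise, or 4.94 ± 0.26 on the log2 scale (95% interval 4.34 to 5.54; adjusted p = 0.00019). Leaving out any single array left it called, at 4.77 to 5.17, with adjusted p between 0.00042 and 0.0040. On MG-U74Av2 arrays the ending _f_at marks a set whose probes can match several members of a gene family; 4 of the 10 Reg probe sets have it, 1 each of Reg1, Reg3a, Reg3b and Reg3g.

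Reg3a, another pancreatitis-associated protein gene, rose on both of its probe sets, by unequal amounts. On 103954_at the values were 11860, 7835 and 19223 in controls and 63973, 80716 and 78220 in CF. Control replicate 2 was the lowest and replicate 3 the highest, and the groups were far apart. CF exceeded control by 2.61 ± 0.29 on the log2 scale (95% interval 1.94 to 3.27; adjusted p = 0.021), a 6.09-fold rise. Without control replicate 1 the adjusted p was 0.066, and without CF replicates 1, 2 and 3 it was 0.12, 0.15 and 0.063, with differences between 2.54 and 2.71.

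On 161642_f_at, Reg3a measured 1250, 601 and 3016 in controls and 29611, 36936 and 38087 in CF. The order of the control arrays was the same as on 103954_at, with replicate 2 lowest and replicate 3 highest. The rise was 26.4-fold, a log2 difference of 4.72 ± 0.48 (95% interval 3.63 to 5.81; adjusted p = 0.020). With control replicate 2 left out it came to 4.16, and with control replicate 3 left out to 5.32. The call did not hold without CF replicate 1 or 2 (adjusted p = 0.12 for each).

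Reg3b, also listed as Pap for pancreatitis-associated protein, had higher values in CF on both probe sets without passing the threshold. On 161890_f_at they were 15898, 7918 and 20519 in controls and 50518, 62095 and 58895 in CF. As for Reg3a, control replicate 2 was the lowest and control replicate 3 the highest, and the groups did not overlap. The log2 difference was 2.05 ± 0.31 (95% interval 1.35 to 2.76; adjusted p = 0.077). It passed without control replicate 2, at 1.66 (adjusted p = 0.017), and with array weights, at 1.85 (adjusted p = 0.040). Adjusted p over all alternative settings for this probe set ran from 0.017 to 0.41.

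The brighter Reg3b probe set, 96009_s_at, measured 50424, 50645 and 59791 in controls and 71939, 89591 and 84498 in CF. Its groups did not overlap either, though they were closer than on the other set. The log2 difference was 0.61 ± 0.16 (95% interval 0.26 to 0.96; adjusted p = 0.30). The ending _s_at marks probes shared by more than one transcript.

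Reg2 encodes an acinar secretory protein and lies between Reg3a and Reg1. Its bright probe set, 95786_at, read 48549, 49248 and 54078 in the control mice against 65514, 78400 and 75298 in the CF mice. Every CF array was above every control array, with a log2 difference of 0.53 ± 0.14 (95% interval 0.20 to 0.85; adjusted p = 0.37). The other set, 161302_r_at, was dim and measured 182, 305 and 179 in controls and 126, 41.9 and 198 in CF, so the groups overlapped. Its log2 difference was -1.02 ± 0.58 (95% interval -2.35 to 0.31; adjusted p = 0.75), with CF replicate 2 raised to the floor of 47.6, the only 1 of the 60 Reg values that lay below it. The ending _r_at marks probes chosen under relaxed design rules.

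Reg1, the secretory stone protein gene next to Reg2, had overlapping groups on both probe sets. On 160213_at it measured 76926, 102909 and 89340 in controls and 74811, 85030 and 85692 in CF. These readings came close to the maxima of the arrays. The log2 difference was -0.13 ± 0.16 (95% interval -0.49 to 0.24; adjusted p = 0.91). On 162312_f_at the values were 1376, 1728 and 1139 in controls and 1407, 1948 and 1589 in CF, with a log2 difference of 0.23 ± 0.21 (95% interval -0.25 to 0.71; adjusted p = 0.87). On this scale the intervals of Reg1 reach from 0.711-fold to 1.63-fold, which does not show that the gene was unaltered.

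**Figure D2:**
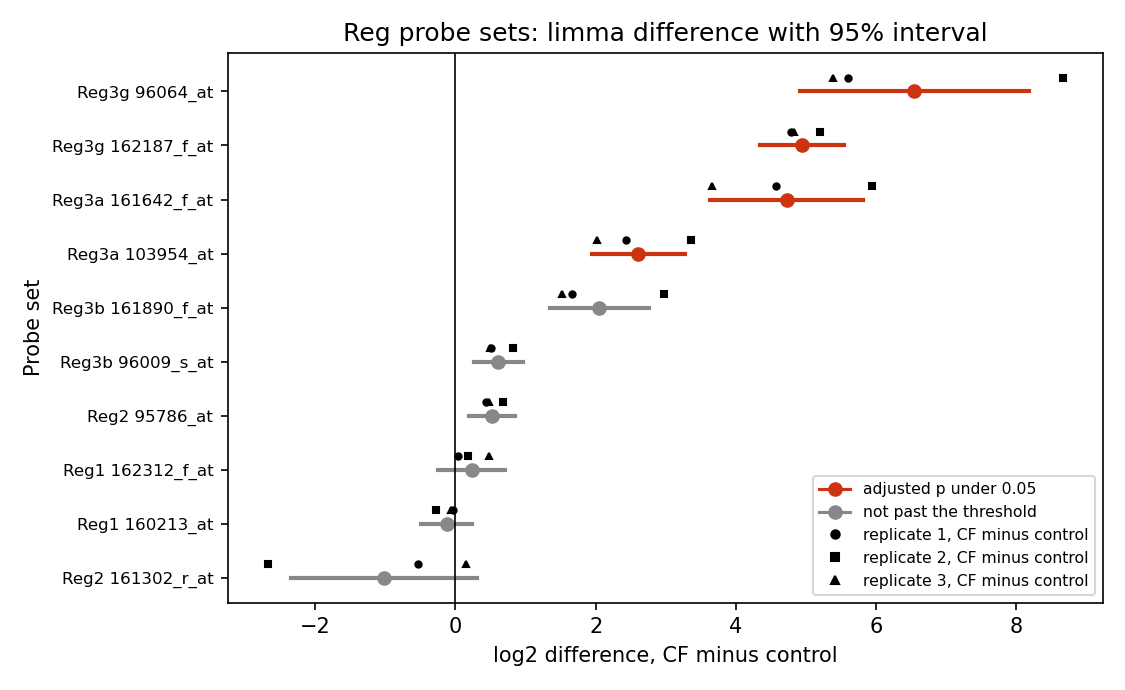
Log2 difference, CF minus control, of each Reg probe set with its 95% interval from limma (circles and bars; red for adjusted p under 0.05) and the difference within each replicate number (black markers). Both Reg3g and both Reg3a sets are past the threshold, and the replicate 2 difference is the largest in all 6 Reg3 sets.

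Ordered by their log2 difference, the probe sets ran from Reg3g 96064_at (6.54) through Reg3g 162187_f_at (4.94), Reg3a 161642_f_at (4.72), Reg3a 103954_at (2.61) and Reg3b 161890_f_at (2.05) to Reg3b 96009_s_at (0.61), Reg2 95786_at (0.53), Reg1 162312_f_at (0.23), Reg1 160213_at (-0.13) and Reg2 161302_r_at (-1.02). The 95% intervals of neighbours in this order overlapped, except between the 2 Reg3a sets (lower bound 3.63 against upper bound 3.27) and between the 2 Reg3b sets (1.35 against 0.96). The differences between probe sets were not tested. The probe sets share their arrays and, within a gene, their target.

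**Figure D3:**
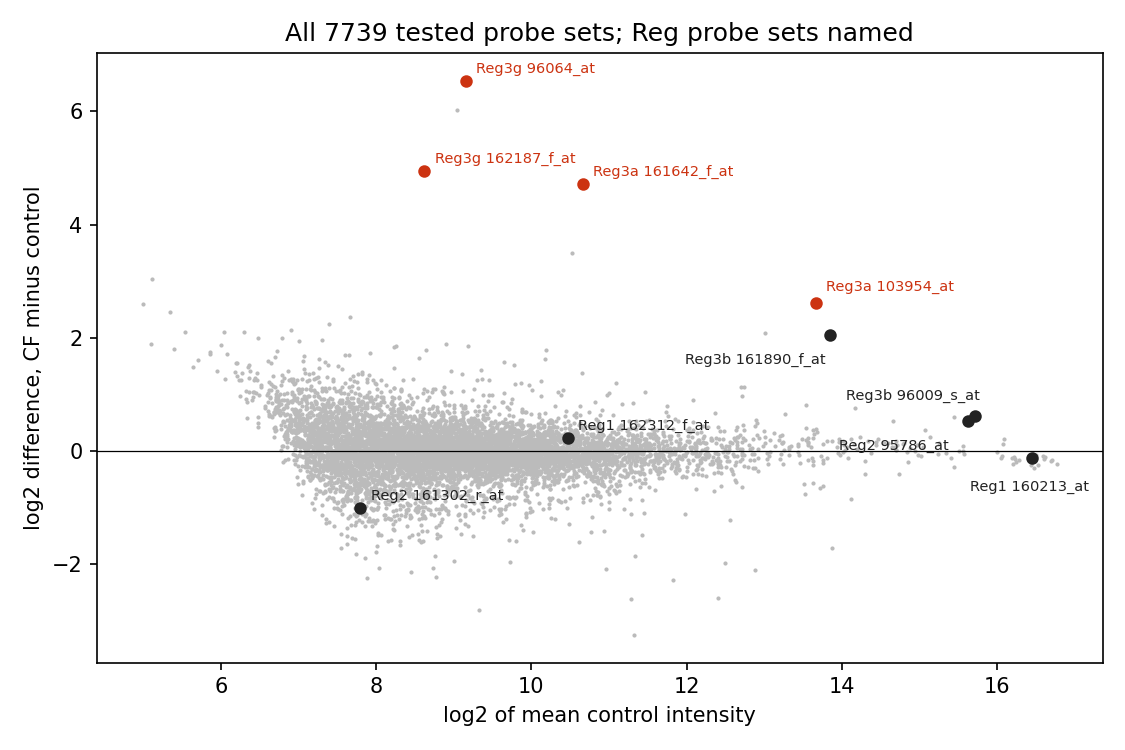
Log2 difference, CF minus control, against log2 of the mean control intensity for all 7739 tested probe sets (grey), with the Reg sets named (red for adjusted p under 0.05). The 2 Reg3g sets and Reg3a 161642_f_at rank 1, 3 and 4 by difference. The Reg sets brightest in controls, Reg1 160213_at, Reg3b 96009_s_at and Reg2 95786_at, lie at -0.13, 0.61 and 0.53. Next by control mean, Reg3b 161890_f_at and Reg3a 103954_at lie at 2.05 and 2.61.

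Within each array, the 2 probe sets of a gene moved apart or together between groups. For Reg3a the log2 ratio of 103954_at to 161642_f_at was 3.25, 3.70 and 2.67 in controls and 1.11, 1.13 and 1.04 in CF. For Reg3b the log2 ratio of 96009_s_at to 161890_f_at was 1.67, 2.68 and 1.54 in controls and 0.51, 0.53 and 0.52 in CF. In both genes the ratio was thus lower, and closer between arrays, in all 3 CF mice. For Reg3g the log2 ratio of 96064_at to 162187_f_at was 1.24, -1.89 and 0.74 in controls and 2.04, 1.57 and 1.29 in CF, the opposite direction.

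For Reg2 the log2 ratio of 95786_at to 161302_r_at averaged 7.88 in controls and 9.43 in CF, and for Reg1 that of 160213_at to 162312_f_at was 5.81, 5.90 and 6.29 in controls and 5.73, 5.45 and 5.75 in CF. A ratio of this kind shows unequal change of 2 sets and not which of them tracks the transcript. The group differences in these ratios were not tested. The Reg transcripts resemble each other, and how far each set reads its relatives was not tested.

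**Figure D4:**
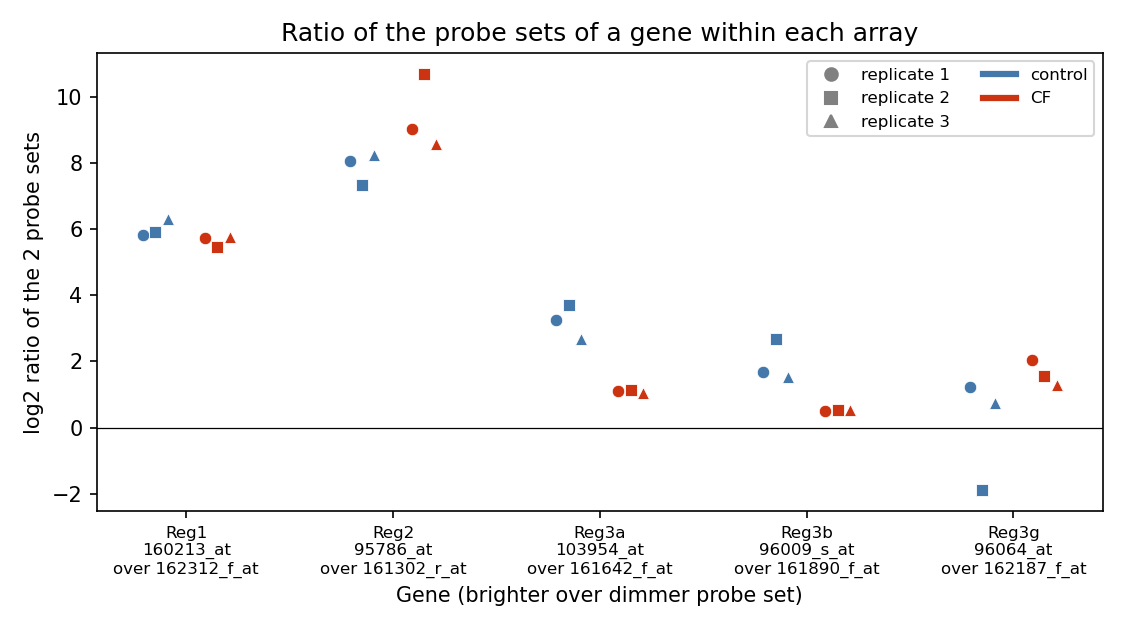
Log2 ratio of the brighter to the dimmer probe set of each Reg gene within each array, by group (colour) and replicate number (marker). For Reg3a and Reg3b the CF points lie close together at about 1.1 and 0.52, below all control points.

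The arrays kept a recurring order within groups. CF replicate 1 was the lowest of the CF arrays on 9 of 10 Reg probe sets, all but Reg2 161302_r_at. Control replicate 3 was the highest control on 7 of 10, among them all 6 Reg3 sets, and control replicate 2 was the lowest on 4 of 10, namely both Reg3a sets, Reg3b 161890_f_at and Reg3g 96064_at. Control replicate 2 is the array with the Gapdh 3'/5' ratio of 1.45. Its Actb ratio of 2.16 was also the highest of the 6 arrays, though close to the 2.14 of CF replicate 2. The part of RNA quality in these Reg values was not tested. Without control replicate 2 the differences of these 4 sets were 2.29, 4.16, 1.66 and 5.50.

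The endings of the sample titles link the groups, and differences taken within a replicate number had the sign of the group difference in all 3 pairs for every Reg probe set except Reg2 161302_r_at (-0.53, -2.68 and 0.15). For Reg3g 96064_at the log2 differences within replicates 1, 2 and 3 were 5.59, 8.66 and 5.38, and for 162187_f_at 4.79, 5.20 and 4.83. For Reg3a 103954_at they were 2.43, 3.36 and 2.02, and for 161642_f_at 4.57, 5.94 and 3.66. For Reg3b 161890_f_at they were 1.67, 2.97 and 1.52. In each of these the second pair was furthest apart. With the replicate number as a block, the same 4 Reg probe sets were called (adjusted p = 0.00018 for 162187_f_at and 0.040 for the other three), against 10 of all tested, or 0.129%.

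**Figure D5:**
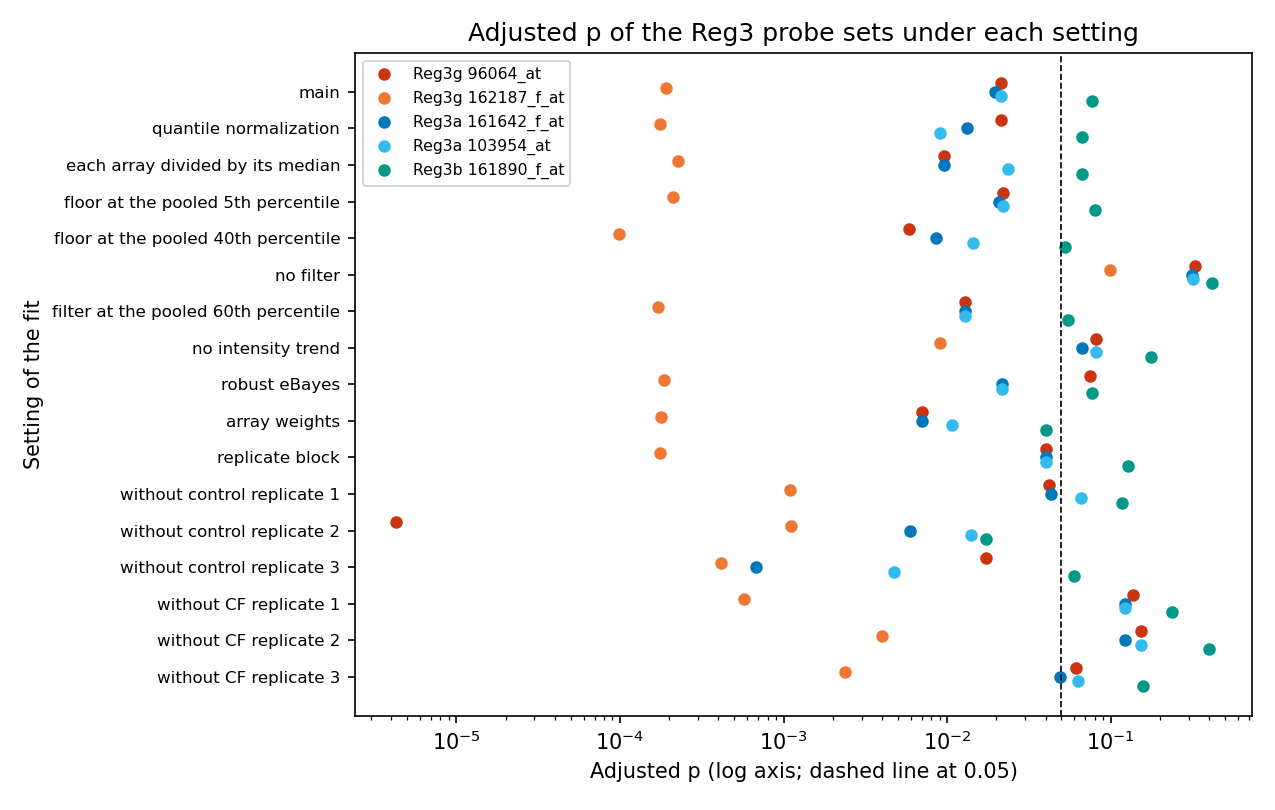
Adjusted p from limma (log axis; dashed line at 0.05) of the 5 Reg3 probe sets with the largest differences, for the main setting and 16 others. Reg3g 162187_f_at is left of the line in all settings but that with no filter, and each of the remaining sets lies on either side of it depending on the setting.

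Genes of gp130 and STAT3 signalling, the pathway known to induce Reg3 genes, had mostly higher values in CF, and 0 passed the threshold. Of 29 genes of the list on the array 18 were tested; 17 had a positive difference and 1 a negative one, with a median log2 difference of 0.32, against 49.6% positive and a median of -0.0032 over 5804 genes. At an unadjusted p under 0.05, 4 were higher and 0 lower, against 4.26% and 3.11% of all tested probe sets. These shares, and the 49.6% of genes with a positive difference, are also the background for the lists that follow. Socs3, a feedback inhibitor that STAT3 induces, averaged 128 ± 73 in control and 436 ± 77 in CF mice, a log2 difference of 1.94 ± 0.49 (adjusted p = 0.30). Lifr, the receptor chain for leukaemia inhibitory factor, differed by 0.56 ± 0.18 and the AP-1 gene Junb by 1.03 ± 0.38 (adjusted p = 0.51 and 0.60). Several differences were smaller than their SE, such as those of Jak1 (0.27 ± 0.35) and Pias3 (0.04 ± 0.32). Interleukin-6 itself, Il6, read between 10.4 and 19.6 on all arrays, below the floor. The part of this pathway in the Reg differences was not tested.

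Among receptors and regulators proposed for Reg proteins or Reg genes, 19 of 30 on the array were tested, 11 with positive and 8 with negative differences (median 0.15), and 0 passed; at an unadjusted p under 0.05, 3 were higher and 0 lower. Myd88, the adaptor of Toll-like receptors, averaged 182 ± 7.7 in control and 517 ± 74 in CF mice, a log2 difference of 1.50 ± 0.26 (adjusted p = 0.11). The transcription factors Cebpd and Rela differed by 0.89 ± 0.34 and 0.42 ± 0.19 (adjusted p = 0.63 and 0.67). Whether these genes had a part in the Reg differences was not tested.

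No gene of the list of other secreted defence genes passed the threshold. Of its 23 tested antimicrobial and mucosal genes, 10 had positive and 13 negative differences (median -0.07); at an unadjusted p under 0.05, 2 were higher and 1 lower. Ang, a secreted ribonuclease, averaged 2546 ± 321 in control and 4565 ± 608 in CF mice, a log2 difference of 0.84 ± 0.17 (adjusted p = 0.16). Pigr, which carries antibodies across epithelia, differed by 0.99 ± 0.33, and Hamp, the iron hormone hepcidin, by -1.18 ± 0.51 (adjusted p = 0.53 and 0.67).

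Of 10 tested genes for other C-type lectins, 2 had positive and 8 negative differences (median -0.13), and 0 passed, nor did any at an unadjusted p under 0.05. The smallest p was that of the macrophage mannose receptor Mrc1, at -0.77 ± 0.64, followed by Mbl1 (0.34 ± 0.41) and Mrc2 (-0.43 ± 0.61). Adjusted p for these ran from 0.84 to 0.92.

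Of 22 tested genes known from pancreatic injury, 8 had positive and 14 negative differences (median -0.18), and 0 passed; at an unadjusted p under 0.05, 3 were higher and 1 lower. The keratin Krt18 averaged 3462 ± 205 in control and 5344 ± 805 in CF mice, a log2 difference of 0.62 ± 0.16 (adjusted p = 0.31). The annexin Anxa2 differed by -1.58 ± 0.53 and the tight junction gene Cldn4 by 1.58 ± 0.54 (adjusted p = 0.53 and 0.55).

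Since Reg3b and Reg3g are also intestinal transcripts, markers of neighbouring tissue and other cells were set beside the Reg values. Summed intensities of the brightest probe set of each of 19 intestinal epithelium genes ran from 4078 to 5217 in controls and from 4556 to 4865 in CF, and 7 of the 19 stayed under 140.2, the level of the filter, on all arrays, among them Fabp1, Fabp2, Vil1 and Cdx2. None of the 6 intestinal genes tested passed, and 1 was higher at an unadjusted p under 0.05, the keratin Krt20 (1.67 ± 0.57, adjusted p = 0.55), followed by Anpep (-0.18 ± 0.23) and Cubn (-0.20 ± 0.32). Sums for 11 stomach genes were 46026 to 48740 in controls and 39578 to 49338 in CF. Most of each sum was the signal of Tff2, which averaged 43485 in controls and 39864 in CF. Of 6 stomach genes tested 0 were called, and none had an unadjusted p under 0.05. Tff1, Tff2 and Atp4a had the smallest p, at -0.39 ± 0.21, -0.13 ± 0.15 and -0.15 ± 0.20.

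Markers of acinar cells, which release Reg1 and Reg2 proteins, summed to 927024 to 1250057 in controls and 873517 to 1001842 in CF, and 3 of 17 tested had positive and 14 negative differences (median -0.15); 0 passed, nor did any at an unadjusted p under 0.05. Cuzd1, Sycn and Cela2a, which encode zymogen granule proteins and an elastase, differed by 0.36 ± 0.19, -0.30 ± 0.17 and -0.24 ± 0.17. Duct markers summed to 15534 to 20472 in controls and 19647 to 23365 in CF. Of 10 tested, 9 had positive differences, against 49.6% of all genes tested, and 0 passed. In limma 4 were higher and 0 lower at an unadjusted p under 0.05, against 4.26% and 3.11% of all tested probe sets. The epithelial regulator Elf3 differed by 0.92 ± 0.16 (adjusted p = 0.11), ahead of Krt18 and Cldn4. The median of the duct list was 0.23. Epcam differed by 0.66 ± 0.29 and Onecut1 by 0.34 ± 0.29. The differences of Muc1 (0.13 ± 0.18), Krt19 (0.04 ± 0.34), Krt8 (0.04 ± 0.22), Aqp1 (0.03 ± 0.51) and Car2 (-0.09 ± 0.42) were smaller than their SE. In whole tissue, fewer cells of a type and less RNA per cell cannot be told apart.

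Sums for fat and lymphocyte markers were lower in the CF mouse of all 3 pairs. The same held for the sums of acinar, liver and other C-type lectin genes. In each of these lists the ranges of the groups overlapped. Sums for the gp130 and STAT3, duct, pancreatic injury and secreted defence lists were higher in the CF mouse of all 3 pairs. Of these, only the gp130 and STAT3 ranges were apart (20536 to 23497 in controls, 26805 to 28264 in CF). In the order of replicates 1, 2 and 3, the sums of 13 adipocyte genes were 16813, 6527 and 9686 in controls and 6951, 5205 and 5106 in CF. Those of 13 lymphocyte genes were 13380, 9039 and 9591 in controls and 9389, 5811 and 6359 in CF. Those of 20 macrophage and granulocyte genes were 23541, 15412 and 16880 in controls and 17008, 15883 and 13920 in CF, lower in CF in 2 of 3 pairs, with control replicate 1 the highest. Islet genes summed to 20085 to 79374 in controls and 23144 to 60698 in CF, and liver genes to 2499 to 3887 and 2373 to 3276. In these 5 lists 0 genes passed in limma. At an unadjusted p under 0.05, 1 liver gene was higher, and 4 adipocyte, 1 lymphocyte and 3 macrophage and granulocyte genes were lower. Positive and negative differences numbered 1 and 7 for adipocyte, 2 and 7 for lymphocyte, and 5 and 11 for macrophage and granulocyte genes. They numbered 4 and 8 for islet and 1 and 4 for liver genes. The positive macrophage and granulocyte genes included Cd14 (0.41 ± 0.20) and C1qb (0.21 ± 0.15). The smallest p among adipocyte genes were those of Aoc3 (-1.18 ± 0.44), adiponectin, Adipoq (-3.26 ± 1.30) and Agt (-1.09 ± 0.46), and among lymphocyte genes those of the B cell gene Ms4a1 (-0.95 ± 0.18), Cd37 (-0.78 ± 0.35) and Jchain (-1.08 ± 0.63). For macrophage and granulocyte genes they were Laptm5 (-0.71 ± 0.20), Cd68 (-0.86 ± 0.27) and Tyrobp (-0.89 ± 0.38), for islet genes Pax6 (-0.65 ± 0.46), Scg2 (-0.55 ± 0.53) and Ppy (0.18 ± 0.22), and for liver genes Hpd (0.94 ± 0.36), Ttr (-0.54 ± 0.26) and Cyp2e1 (-0.60 ± 0.46). The part of these cells in the Reg differences was not tested.

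Outside the family, the genes whose values over the 6 arrays were most like those of Reg3g 96064_at were Fgl2, which encodes a secreted fibrinogen-like protein (Pearson r = 0.996), the mitochondrial enzyme gene Etfdh (0.993), Ly6e (0.991), Tbc1d15 (0.991) and Psmg2 (0.986). Fgl2 ran from 1661 to 2263 in controls and from 3958 to 4376 in CF, with a log2 difference of 1.02 ± 0.17 (adjusted p = 0.099), and Ly6e, a membrane protein gene, from 14307 to 20771 and from 29773 to 31185 (0.75 ± 0.17, adjusted p = 0.23). Most like Reg3b 96009_s_at were Ivns1abp (r = 0.995), Sec11a (0.994), Maoa (0.986), Prl7a2 (0.983) and Rcl1 (0.981). Ivns1abp ran from 875 to 1209 in controls and from 1810 to 2461 in CF (1.16 ± 0.20, adjusted p = 0.11). These correlations describe the same 6 arrays, in which the group difference carries most of the likeness, and were picked as the highest among all tested genes.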

How the data were processed

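The authors deposited 1 linear intensity per probe set and array (Affymetrix MG-U74Av2); software and scaling: not given in the sources used here. The deposited scaling was kept. Groups came from the genotype in the labels, and replicates 1, 2 and 3 from the title endings (none, B, P). Members and gene lists were chosen with earlier results of these data known.

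Values under the pooled 20th percentile (47.6) were raised to it before log2. Leaving out 66 control probe sets, 7739 probe sets above the pooled 40th percentile (140.2) on at least 3 arrays were tested with limma 3.58.1 (R 4.3.3; lmFit, eBayes with intensity trend, no block) and Benjamini-Hochberg over all of them at 0.05. The fit was tested on simulated data. The number of arrays limits the precision, and p-values rest on the spread between single mice and of the measurement.

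Of the probe sets, 10855 had 1 symbol, 396 several and 1237 none, and 10839 were matched to RefSeq names of GRCm38.p6. Lists used the brightest tested probe set per gene. Named genes were all Reg probe sets, up to 3 genes of smallest p per list, and the 5 genes most correlated with the brightest Reg3g and Reg3b sets; others that are named, and the list sums, were added after values were seen.

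Deviations from group means correlated at 0.23 to 0.26 between arrays of the same title ending and at -0.18 to -0.05 between others. Deviations within a group cancel, so the negative values are not separate from the positive ones. The endings were therefore taken to pair the arrays for the block alternative and the differences within replicates. The main fit left the arrays unpaired. The labels do not explain the endings, so what the arrays of a pair have in common is not known here. Promoters were aligned with Biopython 1.88. Alternatives are in the closing section.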

Additional observations from a re-analysis of the deposited data

How the results depend on the processing

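Each of the 10 Reg probe sets kept the sign of its log2 difference in all alternatives in which it was tested (16, or 15 for Reg2 161302_r_at). The 4 Reg calls became 0 with no filter in limma (5 Reg probe sets at an unadjusted p under 0.05, against 7) and 1 with no intensity trend, and ranged from 1 to 5 when single arrays were left out. The 5 calls over all probe sets became 0 with no filter (773 at an unadjusted p under 0.05, of 12422 tested), 3 with no intensity trend, 8 with each array divided by its median, 10 with the floor at the 40th percentile, 12 with array weights (10 higher, 2 lower) and 10 with the replicate block, and ranged from 1 to 11 without single arrays (10 higher and 1 lower without control replicate 2, 4 and 4 without CF replicate 3). With no filter, adjusted p was 0.098 for Reg3g 162187_f_at, 0.33 for 96064_at, and 0.31 and 0.32 for the Reg3a sets; with no trend it was 0.0091, 0.082, 0.067 and 0.082, and 96064_at was at 0.075 with robust eBayes. The replicate block changed no call of a Reg probe set or listed gene. With no filter the SE of the 4 called Reg sets was larger, at 0.30 against 0.26 for 162187_f_at and at 0.62 against 0.48 for Reg3a 161642_f_at. The cause was not tested. Reg1 160213_at read close to the array maxima. Control values of Reg2 95786_at (48549 to 54078) and Reg3b 96009_s_at (50424 to 59791) lay further below them. Whether bright signal was limited was not tested, and a small difference on a bright set does not show equal expression. The planned comparison of Reg proteins was not run.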
